A study of Mus musculus with 8 samples.

Results

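The 10 genes described here are the heat shock transcription factor gene Hsf1 and 9 chaperone genes (Hspa1a, Hspa1b, Hspa8, Hspa5, Hsph1, Hsp90aa1, Hsp90ab1, Dnajb1 and Hspb1), chosen by name out of 57010 genes in the deposited table. All 10 passed the filter on low counts, as did 17976 genes in all. The libraries are bulk RNA sequencing of mouse embryonic stem cells, a pluripotent cell type grown in culture. HSVTK cells carry the 2C::HSVTK reporter, which is built to make herpes simplex virus thymidine kinase in 2C-like cells, the few cells that switch on genes of the 2-cell embryo; ganciclovir (GANC) then becomes toxic to them. The study asked what happens to stem cells once those cells are removed. The 4 groups, each of 2 libraries, were HSVTK cells with GANC, HSVTK cells with the solvent DMSO, Control cells with GANC and Control cells with DMSO. Dose and duration are absent from the labels, as are the make-up of the Control cells and whether the HSVTK cells are 1 clone. Whether both libraries of a group are separate cultures is likewise not stated. The p-values below thus rest on a spread between libraries that may be technical.

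Chaperones hold unfolded proteins, help them fold and pass them on. HSF1 is held inactive by chaperones and, on heat or protein damage, binds repeated GAA units in promoters (heat shock elements) and turns on the inducible chaperone genes, while Hspa5 in the endoplasmic reticulum (ER) answers to the separate unfolded protein response. HSP70 proteins work with J-domain partners and exchange factors, HSP90 finishes the folding of kinases and receptors, and small heat shock proteins bind unfolded chains without ATP. Pluripotent stem cells are known for high levels of several chaperones, and the Hspa1 genes are among the first genes transcribed in the mouse 2-cell embryo.

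Libraries held 29704460 to 34184475 counts. Pou5f1, Sox2 and Nanog, which define these cells, averaged 357 to 688 CPM (counts per 1000000, TMM scaled) in every group, and the fibroblast marker Col1a1 stayed below 1 CPM on average in all 4 groups. The 10 stem cell markers as a list, none at 0, summed to 5880 and 6037 CPM in the libraries labelled HSVTK GANC, 6682 and 6776 in those labelled HSVTK DMSO, 5752 and 6023 in Control GANC and 5570 and 5506 in Control DMSO. Of these 10, 0 were higher and 4 lower with GANC in HSVTK cells, against 13.3% and 15.2% of all tested genes. In HSVTK against Control cells under DMSO, 6 were higher and 1 lower, against 16.4% and 17.3% of all tested genes. The 2C marker Zscan4c averaged 8.70 ± 0.247 CPM in the libraries labelled HSVTK GANC and 4.15 ± 0.786 CPM in those labelled HSVTK DMSO (SD, n = 2 each). Over 11 such markers, 9 of them tested, 6 were called higher and 0 lower in that comparison, against 13.3% and 15.2% of all tested genes. The 11 markers summed to 60.4 and 60.8 CPM, against 29.5 and 30.2 CPM (23.2 to 28.3 CPM in Control libraries). That goes against the removal of 2C-like cells that the labels imply, so both groups are named by their labels and every direction below rests on them. The libraries labelled HSVTK GANC also had the highest mitochondrial shares of counts (3.56 and 3.45%, others 2.88 to 3.17%) and the most genes with a count (25146 and 25656, others 23777 to 24772). The part of these shifts in the results below was not tested. In bulk libraries, fewer cells of a type and less RNA per cell cannot be told apart.

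Taken per transcript length (FPKM, averaged over the 8 libraries), the genes spanned a wide range of expression. Hsp90ab1 led with 1847 FPKM and ranked 10 among all tested genes, followed by Hsp90aa1 with 1147 and rank 26. Hspa8 averaged 825 FPKM and Hspb1 729, and the ranges of this pair overlapped. Hspa5 stood at 173 FPKM, Hsph1 at 27.9 and Dnajb1 at 22.8, the last 2 overlapping. Hsf1 averaged 4.62 FPKM with rank 6858, Hspa1b 1.60 with rank 10109 and Hspa1a 0.263 with rank 14945. By these FPKM, the inducible HSP70 genes were thus the weakest of the 10 in every library. However, 66.3% of the 50-base stretches of Hspa1a and 62.3% of those of Hspa1b also occur in other genes. That share was 58.5% for Hsp90aa1, 52.7% for Hspa8 and 51.6% for Hspb1, against 4.49% for Hsp90ab1 and 0% for Hsf1. How reads from such stretches were counted is not given, so the order holds for the deposited FPKM only. Together the 10 genes took 1.49 and 1.47% of counts in the libraries labelled HSVTK GANC, 1.45 and 1.44% in those labelled HSVTK DMSO, 1.60 and 1.55% in Control GANC and 1.65 and 1.65% in Control DMSO.

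**Figure D1:**
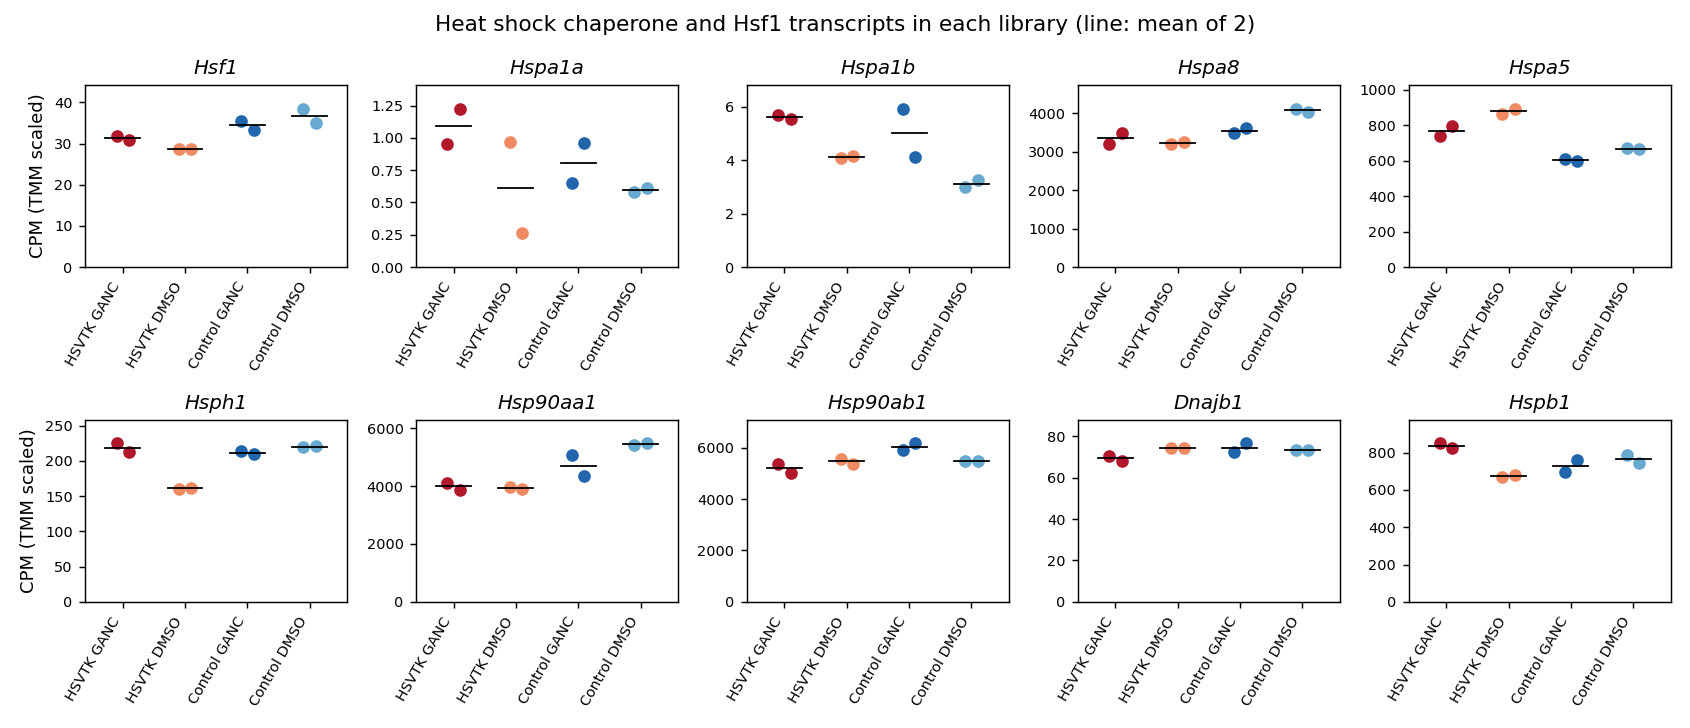
Each panel shows 1 gene, with CPM from 0 on the vertical axis, 1 point per library and a line at the mean of 2. Hsph1 lies lowest in the libraries labelled HSVTK DMSO (160.1 and 162 CPM), Hspa5 is higher in all 4 HSVTK libraries than in the Control libraries, and Hspa1a stays at or below 1.23 CPM throughout.

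A gene was called where the adjusted p of edgeR's quasi-likelihood test (Benjamini-Hochberg, all tested genes) lay below 0.05. Fold changes are log2 values with a standard error (SE). HSVTK and Control cells under DMSO differed in 6 of the 10 genes, where 33.7% of all tested genes were called. Of the 6, 1 was higher and 5 were lower in the libraries labelled HSVTK DMSO, against 16.4% and 17.3% of all tested genes. Under GANC the cell groups differed in 4 of 10 genes, against a background of 26.1%, with 2 higher and 2 lower, against 11.1% and 14.9%. For GANC against DMSO in HSVTK cells, 3 of 10 were called, a share close to the 28.5% of all tested genes, with 2 higher and 1 lower, against 13.3% and 15.2%.

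Between Control GANC and Control DMSO, 4 of 10 were called, 2 higher and 2 lower, where 8.08% of all tested genes were called, 4.73% higher and 3.35% lower. That count was 0 without Control DMSO library 1, 0 without Control DMSO library 2, 2 without Control GANC library 2, and 2 when only the libraries of these groups were fitted. The GANC response differed between HSVTK and Control cells for 5 of 10 genes, 4 higher and 1 lower, against 25.6% of all tested genes, 11.6% higher and 14.0% lower. It was 2 without Control DMSO library 1 and 2 without the library labelled HSVTK DMSO 1. The median log2 fold changes of the 10 genes stayed close to those of all tested genes in the pairwise comparisons. They were 0.09 against 0.01 for GANC in HSVTK cells, -0.06 against -0.00 for GANC in Control cells, -0.09 against 0.00 for the cell groups under DMSO, and -0.02 against 0.01 for the cell groups under GANC. For the difference of responses the median was 0.23 against 0.02. The comparisons share libraries and are not independent of each other. The libraries of both groups did not overlap for 7 of 10 genes with GANC in HSVTK cells (64.2% of all tested genes), 7 with GANC in Control cells (49.5%), 8 between the cell groups under DMSO (67.3%) and 7 under GANC (59.6%). With 2 libraries a group, such counts say little by themselves.

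**Figure D2:**
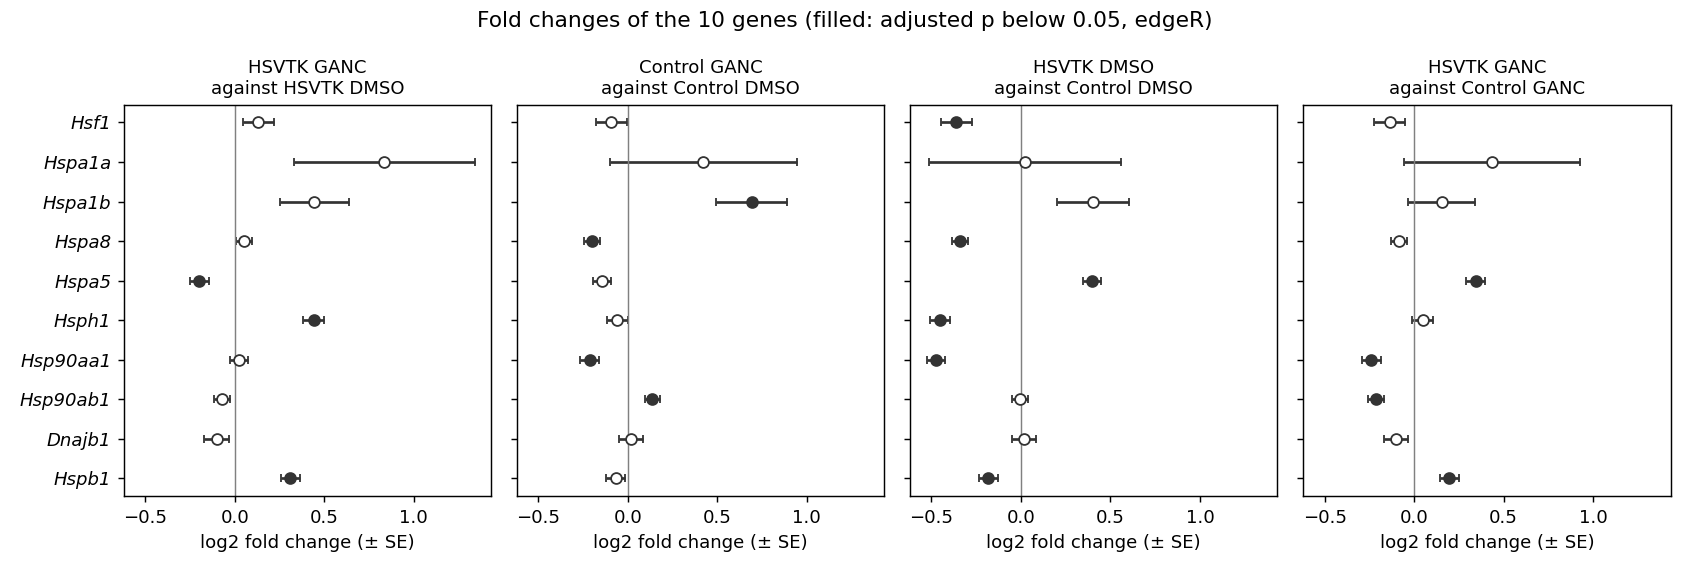
Log2 fold changes of the 10 genes in the 4 pairwise comparisons, with the SE as error bar and filled points where the adjusted p was below 0.05. Called values run from -0.47 (Hsp90aa1, HSVTK DMSO against Control DMSO) to 0.69 (Hspa1b, Control GANC against Control DMSO), and Hspa1a has the widest error bars.

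Hsf1, the master transcription factor of the heat shock response (ENSMUSG00000022556, chromosome 15), was lower in HSVTK than in Control cells under DMSO. It had 31.9 and 30.9 CPM in the libraries labelled HSVTK GANC, 28.7 and 28.7 CPM in those labelled HSVTK DMSO, 35.6 and 33.4 CPM in Control GANC and 38.5 and 35.1 CPM in Control DMSO. All 4 HSVTK libraries lay below all 4 Control libraries. In the libraries labelled HSVTK DMSO the gene fell to 28.7 ± 0.00844 CPM, against 36.8 ± 2.40 CPM in Control DMSO (SD, n = 2 each), a log2 fold change of -0.36 ± 0.09 with an adjusted p of 0.00183. Without Control DMSO library 1 the adjusted p was 0.0615. Under GANC the cell groups differed by -0.14 ± 0.09 (adjusted p = 0.281). GANC gave 0.13 ± 0.09 in HSVTK cells (adjusted p = 0.288) and -0.09 ± 0.09 in Control cells (adjusted p = 0.590). The 30 nearest expressed genes on the chromosome had a median log2 fold change of -0.16 between the libraries labelled HSVTK DMSO and Control DMSO, and the part of the location in the result was not tested.

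A further list held 5 genes of heat shock factors and their binding proteins, all tested. Of these, 1 was higher and 1 lower in the libraries labelled HSVTK DMSO than in Control DMSO, against 16.4% and 17.3% of all tested genes. Hsf2, a second heat shock factor that binds the same elements, fell to 58.1 ± 1.59 CPM in the libraries labelled HSVTK DMSO, against 75.5 ± 0.831 CPM in Control DMSO (log2 fold change -0.38 ± 0.08, adjusted p = 0.000301). It fell further with GANC in HSVTK cells, to 45.6 ± 1.17 CPM (-0.35 ± 0.08, adjusted p = 0.00131). In Control GANC it averaged 66.2 ± 7.28 CPM. Hsf2 was called neither for GANC in Control cells nor for the difference of responses. Hsf2bp, a binding partner of HSF2 best known from meiotic recombination, rose to 118 ± 5.83 CPM in the libraries labelled HSVTK DMSO, against 68.0 ± 2.26 CPM in Control DMSO (0.80 ± 0.07, adjusted p = 2.21e-10). With GANC in HSVTK cells it fell to 93.7 ± 1.69 CPM (-0.34 ± 0.07, adjusted p = 0.000325). With GANC in HSVTK cells 0 of these 5 genes were higher and 2 lower, against 13.3% and 15.2% of all tested genes. Their median log2 fold change was -0.34 there, against 0.01 for all tested genes. It was -0.19 with GANC in Control cells (against -0.00) and 0.14 for the difference of responses (against 0.02). Between the cell groups it was 0.00 under DMSO (against 0.00) and 0.14 under GANC (against 0.01).

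Promoter sequences (300 bases, from 250 before the transcription start to 50 after it) come from RefSeq on the build GRCm38.p6, and 6 of the 10 genes have 1 or more, 8 windows in all. They were searched on both strands for the letters GAANNTTC and TTCNNGAA, which are 2-unit heat shock elements, for a 3-unit element, which is GAANNTTC followed by NNGAA and so contains both, and for the ER stress element, which is CCAAT and CCACG with 9 bases of any kind between them. Of 32851 promoter windows of the same length, 7.86% hold GAANNTTC, 8.52% TTCNNGAA, 15.1% either of them, 0.603% the 3-unit element and 0.119% the ER stress element. A match is a description of the letters and not a measured binding site. The windows printed below are those that hold a match, 1 for each gene, in lower case with the matched elements in capitals.

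Hspa8 encodes HSC70, the constitutive cytosolic HSP70 (ENSMUSG00000015656, chromosome 9). Its transcripts were fewer in HSVTK than in Control cells under DMSO and fewer in Control cells with GANC. It had 3209 and 3491 CPM in the libraries labelled HSVTK GANC, 3209 and 3249 CPM in those labelled HSVTK DMSO, 3498 and 3607 CPM in Control GANC and 4121 and 4047 CPM in Control DMSO. Both Control DMSO libraries stood above the other 6. The log2 fold change between the libraries labelled HSVTK DMSO and Control DMSO was -0.34 ± 0.05 (adjusted p = 9.31e-07), and it was called without any 1 of the 8 libraries. In Control cells Hspa8 was lower with GANC (-0.20 ± 0.05, adjusted p = 0.00590), a call lost without Control DMSO library 1 (adjusted p = 0.124) or 2 (0.0887). In HSVTK cells the GANC value was 0.05 ± 0.05 (adjusted p = 0.422). The difference of both responses was 0.25 ± 0.06 (adjusted p = 0.00389), not called without Control DMSO library 1 (0.0557) or the library labelled HSVTK DMSO 1 (0.0647). Under GANC the cell groups differed by -0.08 ± 0.05 (adjusted p = 0.183). That comparison was called at -0.13 without Control GANC library 1 (adjusted p = 0.0370) and at -0.16 without the library labelled HSVTK GANC 2 (adjusted p = 0.0223).

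The count of Hspa8 is uncertain because a near-identical copy, Gm15459, shares 45.3% of its 50-base stretches. Gm15459 held 74029 to 91779 counts per library, 40.7 to 43.0% of the sum of both. With both genes summed, a choice made after seeing the data, the log2 fold change between the libraries labelled HSVTK DMSO and Control DMSO was -0.29 ± 0.04 (adjusted p = 4.76e-06). The summed GANC response in Control cells was -0.17 ± 0.04 (adjusted p = 0.0170), and the summed difference of responses was 0.21 ± 0.06 (adjusted p = 0.0117). Gm15459 alone was lower between the same DMSO groups (-0.23 ± 0.05, adjusted p = 0.000320). It was not called for GANC in Control cells (-0.12 ± 0.05, adjusted p = 0.134) or for the difference of responses (0.15 ± 0.07, adjusted p = 0.0976). Small nucleolar RNA genes (Snord14c, Snord14d and Snord14e) also overlap Hspa8 exons.

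Hspa1a and Hspa1b encode the heat-inducible cytosolic HSP70 and lie side by side on chromosome 17 (ENSMUSG00000091971 and ENSMUSG00000090877). Both had few counts, and Hspa1b was the member with the largest called fold change in any comparison. The promoter windows are shown because the pair can scarcely be told apart: the windows, at chr17:34972107-34972406 and chr17:34959189-34959488 on the minus strand, are the same at 296 of 300 bases and differ at 4. Each holds 1 element GAANNTTC, at positions -104 to -97 counted from the start site.
Hspa1a: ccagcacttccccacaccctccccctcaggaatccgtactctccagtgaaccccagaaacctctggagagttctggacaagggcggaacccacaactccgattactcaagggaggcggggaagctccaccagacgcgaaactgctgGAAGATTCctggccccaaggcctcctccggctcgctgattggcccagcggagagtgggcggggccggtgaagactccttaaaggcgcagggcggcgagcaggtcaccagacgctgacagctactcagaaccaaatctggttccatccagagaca
Hspa1b: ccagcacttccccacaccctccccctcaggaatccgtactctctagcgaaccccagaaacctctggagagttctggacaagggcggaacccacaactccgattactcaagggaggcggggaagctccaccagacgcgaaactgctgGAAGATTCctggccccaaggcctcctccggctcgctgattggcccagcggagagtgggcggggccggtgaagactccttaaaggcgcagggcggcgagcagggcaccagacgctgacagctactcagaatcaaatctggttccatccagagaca

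Hspa1b had 5.68 and 5.53 CPM in the libraries labelled HSVTK GANC, 4.08 and 4.15 CPM in those labelled HSVTK DMSO, 5.92 and 4.11 CPM in Control GANC and 2.99 and 3.25 CPM in Control DMSO. The Control DMSO libraries were the lowest of the 8, and the Control GANC libraries differed most from each other. In Control cells Hspa1b rose with GANC to 5.02 ± 1.28 CPM, against 3.12 ± 0.186 CPM with DMSO (SD, n = 2 each), a log2 fold change of 0.69 ± 0.20 with an adjusted p of 0.0295. The call was lost without Control DMSO library 1 (adjusted p = 0.168), Control DMSO library 2 (0.0977) or Control GANC library 1 (log2 fold change 0.42, adjusted p = 0.303), and with only these groups in the fit (0.0747). In HSVTK cells GANC gave 0.44 ± 0.19 (adjusted p = 0.0836) without overlap of the libraries. The difference of both responses was -0.25 ± 0.28 (adjusted p = 0.567), so the data do not separate a larger from a smaller response in HSVTK cells.

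Hspa1a had 0.951 and 1.23 CPM in the libraries labelled HSVTK GANC, 0.966 and 0.263 CPM in those labelled HSVTK DMSO, 0.654 and 0.962 CPM in Control GANC and 0.585 and 0.615 CPM in Control DMSO. These are 9 to 41 counts per library, and the lowest, with 9, is a library labelled HSVTK DMSO whose partner has 31. No comparison was called, with log2 fold changes of 0.83 ± 0.51 for GANC in HSVTK cells (adjusted p = 0.236) and 0.42 ± 0.52 in Control cells (adjusted p = 0.707). Without the library labelled HSVTK DMSO 1, the value in HSVTK cells was 2.02 and was called (adjusted p = 0.0303).

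Of the 50-base stretches of Hspa1a, 58.8% also occur in Hspa1b, so reads can be split between them. Their counts were therefore summed, a choice made after seeing the data. The sums were 209 and 226 counts in the libraries labelled HSVTK GANC, 162 and 151 in those labelled HSVTK DMSO, 221 and 153 in Control GANC and 116 and 113 in Control DMSO. The summed gene was called higher with GANC in both cell groups. The values were 0.50 ± 0.17 in HSVTK cells (adjusted p = 0.0315) and 0.65 ± 0.18 in Control cells (adjusted p = 0.0245). The difference between the responses was -0.15 ± 0.25 (adjusted p = 0.720). Unlike the single genes, the sum was not refitted with other settings or with a library left out. Hspa1b gave most of its counts, and the call of Hspa1b in Control cells depended on single libraries. Constitutive Hspa8 exceeded the summed Hspa1 genes in FPKM 318 and 340 times in the libraries labelled HSVTK GANC. In those labelled HSVTK DMSO it did so 419 and 482 times. The ratio was 349 and 468 in Control GANC and 759 and 689 in Control DMSO. It had no test of its own and leaves out Gm15459, the near-identical copy of Hspa8.

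Hspa5 encodes BiP, the HSP70 of the ER and a standard reporter of the unfolded protein response (ENSMUSG00000026864, chromosome 2). It was the only called gene of the 10 that was higher in HSVTK than in Control cells under DMSO. Its promoter (chr2:34771840-34772139, plus strand) is shown because it holds an element that no other window of these genes has: the ER stress element lies at positions -65 to -47 from the start site, and no heat shock element was found.
Hspa5: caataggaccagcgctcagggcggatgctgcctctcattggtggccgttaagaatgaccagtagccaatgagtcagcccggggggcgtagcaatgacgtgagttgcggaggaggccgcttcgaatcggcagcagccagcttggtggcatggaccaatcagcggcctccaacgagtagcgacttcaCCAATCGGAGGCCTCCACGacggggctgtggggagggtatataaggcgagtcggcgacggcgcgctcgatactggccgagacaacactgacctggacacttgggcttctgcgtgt

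Hspa5 had 741 and 794 CPM in the libraries labelled HSVTK GANC, 866 and 894 CPM in those labelled HSVTK DMSO, 609 and 600.0 CPM in Control GANC and 671 and 666 CPM in Control DMSO. All 4 HSVTK libraries lay above all 4 Control libraries, and within each cell group the GANC libraries lay below the DMSO libraries. The log2 fold change was 0.40 ± 0.05 between the libraries labelled HSVTK DMSO and Control DMSO (adjusted p = 5.09e-07) and 0.34 ± 0.05 between those labelled HSVTK GANC and Control GANC (adjusted p = 8.21e-06). Both were called without any 1 of the 8 libraries. The 30 nearest expressed genes had medians of 0.06 and -0.02 in these comparisons. In HSVTK cells Hspa5 was lower with GANC (-0.20 ± 0.05, adjusted p = 0.00417), a call lost without the library labelled HSVTK GANC 1 (0.0621) or HSVTK DMSO 2 (0.0902). In Control cells the value was -0.15 ± 0.05 (adjusted p = 0.0797; DESeq2 gave 0.0413), and the difference between both responses was -0.05 ± 0.07 (adjusted p = 0.653). Primitive endoderm markers, which these cultures can hold as differentiated cells, were also higher in HSVTK cells: their 9 genes, none at 0, summed to 94.3 and 87.2 CPM in the libraries labelled HSVTK GANC, 84.3 and 79.0 in those labelled HSVTK DMSO, 49.1 and 54.7 in Control GANC and 47.2 and 47.0 in Control DMSO. Of those 9 genes, 4 were called higher between the cell groups under DMSO and 6 under GANC, against 16.4% and 11.1% of all tested genes. The part of these markers in the Hspa5 result was not tested. Fibroblast markers, 1 to 5 of 10 of them at 0 in a library, summed to 22.3 to 25.8 CPM in HSVTK and 11.8 to 19.7 CPM in Control libraries, likewise not tested.

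Further ER chaperones and genes of the unfolded protein response, a list of 26 genes that were all tested, were mostly higher in HSVTK than in Control cells under DMSO. Of the 26, 19 were higher and 2 lower between the libraries labelled HSVTK DMSO and Control DMSO, against 16.4% and 17.3% of all tested genes. The 26 genes had a median log2 fold change of 0.36, against 0.00 for all tested genes. With 1 library left out, 14 to 21 were higher, and without the library labelled HSVTK DMSO 2 only 1 was lower. Sdf2l1, a partner of BiP, rose to 48.1 ± 1.39 CPM in the libraries labelled HSVTK DMSO, against 19.9 ± 0.0321 CPM in Control DMSO (log2 fold change 1.27 ± 0.10, adjusted p = 1.89e-11). Pdia6, a protein disulfide isomerase, rose to 582 ± 12.3 CPM, against 370 ± 12.8 CPM in Control DMSO (0.65 ± 0.06, adjusted p = 3.64e-10). Pdia3, another disulfide isomerase, went the other way, with 485 ± 1.70 CPM in the libraries labelled HSVTK DMSO and 735 ± 4.94 CPM in Control DMSO (-0.60 ± 0.05, adjusted p = 1.87e-10). The 30 nearest expressed genes of Pdia3 had a median of -0.74 in the same comparison, and the part of the location in its result was not tested. Under GANC, 12 of the 26 genes were higher and 2 lower in HSVTK than in Control cells (median 0.17 against 0.01), and 7 were higher without the library labelled HSVTK GANC 2. The shares of all tested genes under GANC were 11.1% higher and 14.9% lower. Named by adjusted p, the calcium-binding chaperone Calr was higher under GANC by 0.34 ± 0.05, the isomerase Pdia4 by 0.46 ± 0.06 and Creld2, an ER stress gene, by 0.50 ± 0.07 (adjusted p at most 1.18e-05).

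With GANC in HSVTK cells, 13 of the same 26 genes were lower and 2 higher, against 15.2% and 13.3% of all tested genes. The 26 genes had a median of -0.16, against 0.01 for all tested genes. With 1 library left out, 10 to 14 were lower and 1 to 2 higher. Herpud1, which serves the degradation of ER proteins, fell to 44.5 ± 0.168 CPM in the libraries labelled HSVTK GANC, against 73.1 ± 3.23 CPM in those labelled HSVTK DMSO (log2 fold change -0.71 ± 0.08, adjusted p = 3.37e-08). Control cells averaged 43.0 CPM with GANC and 42.2 CPM with DMSO. Pdia6 was also lower (-0.43 ± 0.06, adjusted p = 1.65e-06). So was Sil1, an exchange factor of BiP (-0.85 ± 0.12, adjusted p = 6.28e-06). In Control cells 1 of the 26 genes was higher and 2 were lower with GANC, a count that was 0 in both directions without Control DMSO library 1 or 2. The shares of all tested genes in Control cells were 4.73% higher and 3.35% lower, and for the difference of responses 11.6% and 14%. The response differed between the cell groups for 3 of the 26 genes in the higher and 11 in the lower direction (median -0.23 against 0.02). Among them were Herpud1 (-0.74 ± 0.11, adjusted p = 7.21e-06), Sdf2l1 (-0.92 ± 0.13, adjusted p = 7.50e-06) and the large ER chaperone Hyou1 (-0.53 ± 0.09, adjusted p = 3.31e-05).

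**Figure D3:**
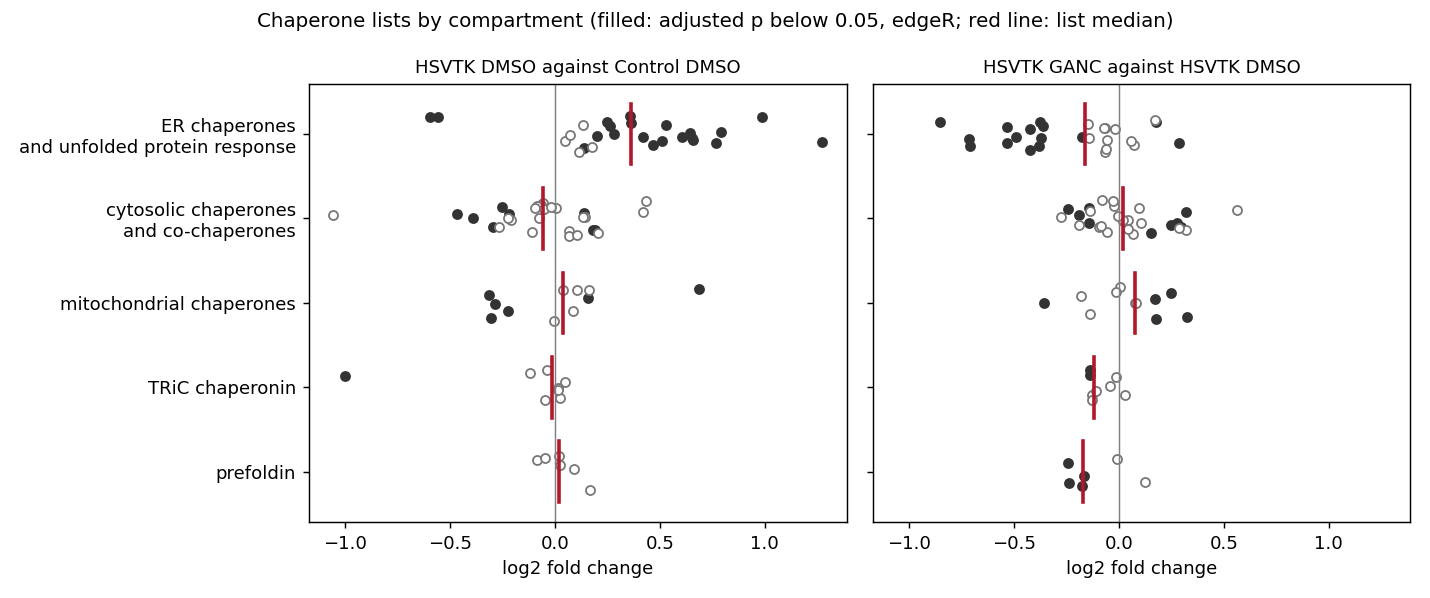
Log2 fold changes of the genes of 5 chaperone lists, 1 point per gene, filled where the adjusted p was below 0.05, with a red line at the list median. The ER list lies mostly to the right for HSVTK DMSO against Control DMSO (median 0.36) and mostly to the left for HSVTK GANC against HSVTK DMSO (median -0.16), and the point far to the left of its row among the chaperonin genes is Cct7.

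The share of Hspa5 in the summed FPKM of Hspa5 and Hspa8, the main HSP70 genes of ER and cytosol, was 19.0 and 18.8% in the libraries labelled HSVTK GANC and 21.5 and 21.9% in those labelled HSVTK DMSO. It was 15.05 and 14.5% in Control GANC and 14.2 and 14.3% in Control DMSO. Every HSVTK library thus had a larger ER share than every Control library, and within HSVTK cells the share was smaller with GANC. No test was made of this share, which leaves out Gm15459, the near-identical copy of Hspa8.

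Hsph1 encodes HSP110 (ENSMUSG00000029657, chromosome 5), the exchange factor that releases nucleotide from cytosolic HSP70, and it showed the clearest GANC response of the 10 genes. Its promoter (chr5:149636287-149636586, minus strand; the window of a second RefSeq start overlaps it) is shown because, of the 6 genes with a window, it alone has the 3-unit heat shock element, here on the other strand at positions 37 to 49 from the start site. It also holds TTCNNGAA at positions -33 to -26.
Hsph1: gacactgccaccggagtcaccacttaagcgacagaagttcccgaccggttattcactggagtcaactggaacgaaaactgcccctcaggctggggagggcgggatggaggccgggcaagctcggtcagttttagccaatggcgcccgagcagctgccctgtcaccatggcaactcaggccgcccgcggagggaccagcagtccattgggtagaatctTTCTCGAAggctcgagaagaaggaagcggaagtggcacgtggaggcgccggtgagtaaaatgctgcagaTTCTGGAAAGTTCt

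Hsph1 had 225 and 212 CPM in the libraries labelled HSVTK GANC, 160.1 and 162 CPM in those labelled HSVTK DMSO, 214 and 209 CPM in Control GANC and 220.2 and 220.6 CPM in Control DMSO. The libraries labelled HSVTK DMSO stood alone below the other 6. It rose with GANC in HSVTK cells to 219 ± 8.73 CPM, against 161 ± 1.36 CPM with DMSO (SD, n = 2 each), which is 35.7% higher, with a log2 fold change of 0.44 ± 0.06 and an adjusted p of 1.34e-06. In Control cells the GANC value was -0.06 ± 0.06 (adjusted p = 0.608), and the difference of both responses was 0.50 ± 0.08 (adjusted p = 3.68e-05). Under DMSO it was lower in HSVTK than in Control cells, with a log2 fold change of -0.45 ± 0.06 (adjusted p = 4.44e-07). Between those labelled HSVTK GANC and Control GANC the value was 0.05 ± 0.06 (adjusted p = 0.599). All 3 calls held without any 1 of the 8 libraries. Its 21 nearest expressed genes had a median of -0.04 for GANC in HSVTK cells and -0.01 between the cell groups under DMSO. Neuroectoderm markers, 1 or 2 of 8 at 0 in a library, were also lowest in the libraries labelled HSVTK DMSO. They summed to 162 and 152 CPM in the libraries labelled HSVTK GANC, 135 and 126 in those labelled HSVTK DMSO, 147 and 163 in Control GANC and 187 and 176 in Control DMSO. With GANC in HSVTK cells 13.3% of all tested genes were higher, and 17.3% were lower in HSVTK than in Control cells under DMSO. Of the 8 markers, 6 were tested, of which 1 was higher in the former comparison and 2 were lower in the latter. Their part in the results of Hsph1 and Hspb1 was not tested.

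Hsp90aa1, the inducible cytosolic HSP90 (ENSMUSG00000021270, chromosome 12), was lower in HSVTK than in Control cells under both treatments. It had 4098 and 3878.5 CPM in the libraries labelled HSVTK GANC, 3956 and 3899 CPM in those labelled HSVTK DMSO, 5061 and 4349 CPM in Control GANC and 5435 and 5477 CPM in Control DMSO. All 4 HSVTK libraries lay below all 4 Control libraries, and the Control GANC libraries were far apart. The log2 fold change was -0.47 ± 0.05 between the libraries labelled HSVTK DMSO and Control DMSO (adjusted p = 2.50e-08) and -0.24 ± 0.05 between those labelled HSVTK GANC and Control GANC (adjusted p = 0.000856). Both held without any 1 of the 8 libraries. In Control cells it was lower with GANC (-0.21 ± 0.05, adjusted p = 0.00955), but not called without Control DMSO library 1 (0.0730), Control DMSO library 2 (0.118) or Control GANC library 2 (-0.11, adjusted p = 0.145). In HSVTK cells the GANC value was 0.02 ± 0.05 (adjusted p = 0.795). The difference of both responses, 0.24 ± 0.07 (adjusted p = 0.0169), was not called once any of 6 libraries was left out: Control DMSO 1 (0.0660), Control DMSO 2 (0.0898), Control GANC 2 (0.12, adjusted p = 0.102), or those labelled HSVTK DMSO 1 (0.0793), HSVTK DMSO 2 (0.107) and HSVTK GANC 1 (0.0853). Gm12346, a copy that shares 51.5% of the 50-base stretches of Hsp90aa1, held 560 to 969 counts per library, against 126968 to 176595 for Hsp90aa1.

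Hsp90ab1, the constitutive cytosolic HSP90 (ENSMUSG00000023944, chromosome 17), had the highest level of the 10 genes and moved little. It had 5375 and 5027 CPM in the libraries labelled HSVTK GANC, 5542 and 5379 CPM in those labelled HSVTK DMSO, 5902 and 6163 CPM in Control GANC and 5484 and 5484 CPM in Control DMSO. The Control GANC libraries stood above the other 6. In Control cells it was higher with GANC (0.14 ± 0.04, adjusted p = 0.0468). That call was lost with RLE scaling (0.0539), with the replicate block (0.0658), with only these groups fitted (0.0942), and without Control DMSO 1 (0.239), Control DMSO 2 (0.245), Control GANC 2 (0.151) or the libraries labelled HSVTK DMSO 1 (0.0918) and HSVTK DMSO 2 (0.0913). In HSVTK cells the GANC value was -0.07 ± 0.04 (adjusted p = 0.245). The difference of both responses was -0.21 ± 0.06 (adjusted p = 0.0124), not called without Control DMSO 1 (0.0520) or the library labelled HSVTK DMSO 1 (0.0769). Under GANC, it was lower in HSVTK than in Control cells (-0.21 ± 0.04, adjusted p = 0.000430), which held without any 1 of the 8 libraries. Under DMSO the cell groups differed by -0.01 ± 0.04 (adjusted p = 0.933).

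Among the cytosolic HSP90 transcripts, the share of Hsp90aa1 set only Control DMSO apart. The inducible gene gave 36.8 and 37.1% of the summed FPKM of Hsp90aa1 and Hsp90ab1 in the libraries labelled HSVTK GANC and 35.3 and 35.6% in those labelled HSVTK DMSO. It gave 39.5 and 35.0% in Control GANC and 43.1 and 43.2% in Control DMSO. Control DMSO was above all others, and the Control GANC libraries spanned the range of the HSVTK libraries. These shares had no test of their own. Of the 50-base stretches, 58.5% of those of Hsp90aa1 also occur in other genes, against 4.49% for Hsp90ab1, which may affect the level of the shares.

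**Figure D4:**
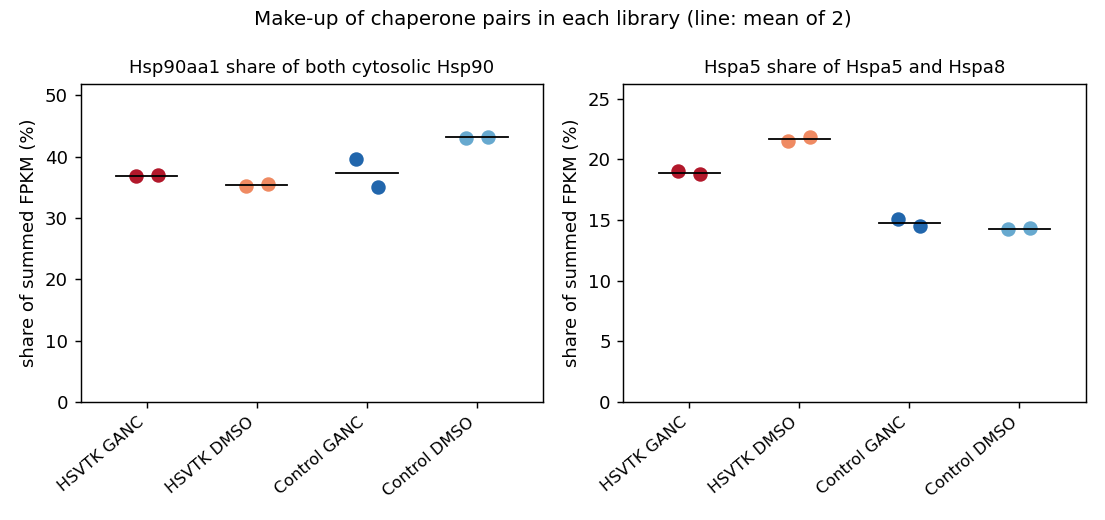
Left, the share of Hsp90aa1 in the summed FPKM of both cytosolic HSP90 genes; right, the share of Hspa5 in that of Hspa5 and Hspa8, both in percent from 0, with 1 point per library and a line at the mean of 2. On the left Control DMSO is highest (43.1 and 43.2%), and on the right the libraries labelled HSVTK DMSO are highest (21.5 and 21.9%).

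Dnajb1, the J-domain protein HSP40 that delivers clients to cytosolic HSP70 (ENSMUSG00000005483, chromosome 8), varied least between libraries of the 10 genes. It had 70.6 and 68.3 CPM in the libraries labelled HSVTK GANC, 74.3 and 74.6 CPM in those labelled HSVTK DMSO, 72.4 and 76.6 CPM in Control GANC and 73.6 and 73.6 CPM in Control DMSO. The libraries labelled HSVTK GANC were the lowest of the 8. No comparison was called. The log2 fold changes were -0.10 ± 0.07 for GANC in HSVTK cells (adjusted p = 0.305), 0.02 ± 0.07 in Control cells (0.926), 0.02 ± 0.07 between the cell groups under DMSO (0.884) and -0.10 ± 0.07 under GANC (0.315). The difference of responses was -0.12 ± 0.10 (0.419). Neither of its 2 promoter windows holds any of the elements searched.

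Hspb1 encodes HSP25, the small heat shock protein HSP27 of humans (ENSMUSG00000004951, chromosome 5), and like Hsph1 it was higher with GANC in HSVTK cells. Its promoter (chr5:135887669-135887968, plus strand) is shown for its pair of elements GAANNTTC, at positions -117 to -110 and -97 to -90 from the start site.
Hspb1: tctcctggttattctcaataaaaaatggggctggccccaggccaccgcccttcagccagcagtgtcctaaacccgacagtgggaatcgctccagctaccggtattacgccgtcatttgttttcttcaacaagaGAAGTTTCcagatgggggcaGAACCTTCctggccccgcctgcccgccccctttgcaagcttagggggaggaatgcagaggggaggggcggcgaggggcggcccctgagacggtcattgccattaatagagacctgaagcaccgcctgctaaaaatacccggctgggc

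Hspb1 had 849 and 823 CPM in the libraries labelled HSVTK GANC, 667 and 681 CPM in those labelled HSVTK DMSO, 698 and 761 CPM in Control GANC and 788 and 742 CPM in Control DMSO. The libraries labelled HSVTK GANC were the highest of the 8 and those labelled HSVTK DMSO the lowest. In HSVTK cells it was 24.0% higher with GANC (0.31 ± 0.05, adjusted p = 5.96e-05), while in Control cells the value was -0.07 ± 0.05 (adjusted p = 0.497). The difference of both responses was 0.38 ± 0.08 (adjusted p = 0.000388), and this call and that in HSVTK cells held without any 1 of the 8 libraries. Under DMSO it was lower in HSVTK than in Control cells (-0.18 ± 0.05, adjusted p = 0.00839), a call lost without Control DMSO 1 (0.193) or the libraries labelled HSVTK DMSO 1 (0.134) and HSVTK DMSO 2 (0.0662). Between those labelled HSVTK GANC and Control GANC it was higher by 0.20 ± 0.05 (adjusted p = 0.00645), a call lost without Control GANC 1 (0.12, adjusted p = 0.119) or the library labelled HSVTK GANC 1 (0.0708) and with only these groups fitted (0.0680). A pseudogene, Hsp25-ps1, shares 51.6% of its 50-base stretches and held 5 to 20 counts per library.

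Of 9 other small heat shock protein genes, 5 passed the filter on low counts. Hspb8, which works with the co-chaperone BAG3 in autophagy, moved against Hspb1: it fell with GANC in HSVTK cells to 12.7 ± 0.181 CPM, against 22.4 ± 0.299 CPM with DMSO (log2 fold change -0.82 ± 0.10, adjusted p = 8.81e-07). The difference of responses was -1.04 ± 0.15 (adjusted p = 5.27e-06). It was the only gene of the 5 called in either comparison, where 15.2% and 14% of all tested genes were lower. The medians of the 5 were -0.33 and -0.38.

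Among 29 further cytosolic chaperones and co-chaperones, all tested, changes went both ways and the medians stayed near those of all genes. Between the libraries labelled HSVTK DMSO and Control DMSO, 16.4% of all tested genes were higher and 17.3% lower. Of the 29, 3 were higher and 5 lower there (median -0.06 against 0.00). Without Control DMSO library 1 these were 0 and 3, and 0 and 1 were higher without the libraries labelled HSVTK DMSO 1 and HSVTK DMSO 2. Dnaja1, a J-domain partner of HSC70, fell to 485 ± 8.61 CPM in the libraries labelled HSVTK DMSO, against 671 ± 3.23 CPM in Control DMSO (-0.47 ± 0.05, adjusted p = 3.05e-08). With GANC in HSVTK cells, 5 were higher and 4 lower (median 0.02 against 0.01), with 1 to 5 higher and 0 to 5 lower when 1 library was left out, fewest without the library labelled HSVTK DMSO 2. With the replicate block or with library size scaling, 2 were lower. The shares of all tested genes were 13.3% higher and 15.2% lower with GANC in HSVTK cells. For the difference of responses they were 11.6% and 14%. Dnaja1 rose with GANC in HSVTK cells to 596 ± 18.3 CPM (0.30 ± 0.05, adjusted p = 6.47e-05), and the difference of responses was 0.39 ± 0.07 (adjusted p = 0.000167). Ahsa1, the activator of the HSP90 ATPase, rose to 283 ± 11.7 CPM in the libraries labelled HSVTK GANC, against 239 ± 1.99 CPM in those labelled HSVTK DMSO (0.25 ± 0.06, adjusted p = 0.00180). Without the library labelled HSVTK DMSO 2 its adjusted p was 0.0506. The difference of responses had 4 genes higher, also without any 1 library, and 5 lower, with 1 to 6 lower when 1 library was left out and fewest without Control DMSO library 2 or the library labelled HSVTK DMSO 2 (median 0.02 against 0.02).

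With GANC in Control cells, 2 of these 29 genes were higher and 2 lower, with 0 higher without Control DMSO library 2 or Control GANC library 2 and 1 to 3 lower when 1 library was left out (median -0.01 against -0.00). With the replicate block, library size scaling or no filter, 1 was lower. The shares of all tested genes were 4.73% higher and 3.35% lower with GANC in Control cells. Bag3, an HSP70 co-chaperone induced by stress, rose to 28.7 ± 3.23 CPM in Control GANC, against 20.8 ± 0.766 CPM in Control DMSO (0.46 ± 0.11, adjusted p = 0.00774). Its call was lost without Control DMSO library 2 or Control GANC library 2, with an adjusted p of up to 0.108. Dnajc7, a J-domain protein that also binds HSP90, fell to 209 ± 4.14 CPM, against 259 ± 3.21 CPM in Control DMSO (-0.31 ± 0.06, adjusted p = 0.00113). Under GANC, 3 genes were higher and 4 lower in HSVTK than in Control cells (median -0.06 against 0.01), and 0 were higher and 1 lower without the library labelled HSVTK GANC 2, against 0 to 2 higher and 1 to 4 lower over all libraries left out. With library size scaling 1 was lower, and with no filter 1 was higher. Between the cell groups under GANC, 11.1% of all tested genes were higher and 14.9% lower.

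The genes whose pattern over the 8 libraries was most like that of each called member were found by the root mean square difference of centred log2 CPM among 8280 genes with a mean of at least 10 CPM. For Hsph1, which itself varied by 0.188, the nearest were Polrmt at 0.0341, Tarbp2 at 0.0382 and Cactin at 0.0411. For Hspb1, which varied by 0.120, they were Tmc6 at 0.0335, Ttc32 at 0.0341 and Jmjd4 at 0.0393. For Hspa5, which varied by 0.206, they were Magt1 at 0.0373, Cd164 at 0.0498 and Snhg8 at 0.0538. No member of the chaperone lists is among these.

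For Hspa8, which varied by 0.133, the nearest were Kif20a at 0.0252, Glrx3 at 0.0359 and Ash2l at 0.0364. Hsf1 varied by 0.142, with Rc3h1 at 0.0387, Pitrm1 at 0.0422 and Hnrnpm at 0.0434. Hsp90aa1 varied by 0.202, with Ddx10 at 0.0469, Adcy1 at 0.0470 and Mettl25 at 0.0480. Hsp90ab1 varied least of the called members, by 0.0834, with Anapc2 at 0.0188, Incenp at 0.0219 and Wwp2 at 0.0293. The nearest genes of Hspa1b, which varied most at 0.341, were Synj1, Slc31a2 and Lnx2, all at 0.193 to 0.195, and so far less alike. These distances describe 8 libraries that share groups and carry no test.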

How the data were processed

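The titles of the 8 libraries gave cell group, treatment and replicate. The authors deposited whole-number counts that were not normalized, and FPKM, which adjust counts for gene length and library total. GRCm39, DESeq2 1.40.2, featureCounts 2.0.1, HISAT2 2.1.0 and fastp 0.23.2 appear in the submitters' processing notes, with no roles. Not given in the sources used here are the strand setting, how reads that match several places were counted and the annotation release, so near-copies and antisense partners may share reads.

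Counts were fitted with edgeR 4.0.16 in R 4.3.3 (quasi-likelihood F test, TMM, filterByExpr, all 8 libraries in 4 groups, 4 residual degrees of freedom), adjusted by Benjamini-Hochberg over 17976 genes and called below 0.05. The code was tested on simulated data. An SE is the log2 fold change over the root of F. CPM are TMM scaled. With 2 libraries a group, an exact permutation test reaches no p under 0.333. Alternatives were RLE or library size scaling, DESeq2 1.42.0, no filter, only the groups compared, a replicate block, and each library left out.

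The members, lists and tests were chosen with earlier results of these data known. Named were all members, up to 3 called genes with the lowest adjusted p per list and comparison, and 3 genes of like pattern per called member. Some genes are named beyond the comparison in which this rule chose them. Promoters are from RefSeq. Gene order (neighbours with a mean of at least 5 CPM, 15 each side) and shared 50-base stretches come from GENCODE vM21 on GRCm38, another build than GRCm39, so no gene coordinates are given.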

Additional observations from a re-analysis of the deposited data

Results flagged for a closer look

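By a test of the difference itself, the response to GANC differed between HSVTK and Control cells for 5 of the 10 genes. Of all tested genes, 25.6% were called. The calls of Hsph1 and Hspb1 held without any 1 of the 8 libraries, and those of Hspa8, Hsp90aa1 and Hsp90ab1 did not. The difference, as log2 fold change in HSVTK minus that in Control cells, was 0.50 for Hsph1, 0.38 for Hspb1, 0.25 for Hspa8, 0.24 for Hsp90aa1 and -0.21 for Hsp90ab1 (edgeR adjusted p 3.68e-05, 0.000388, 0.00389, 0.0169 and 0.0124 in that order). For Hsph1 and Hspb1 it goes with a rise in the libraries labelled HSVTK GANC. For Hspa8 and Hsp90aa1 it goes with lower values in Control GANC than in Control DMSO. For Hsp90ab1 the values were -0.07 in HSVTK and 0.14 in Control cells.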

How the results depend on the processing

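Over all genes, only the fit of only the groups compared moved a count by over 1.5 times, to 942 genes (main 1453) and 2 members (main 4) for GANC in Control cells. Library size scaling turned the value of Hsp90ab1 between the cell groups under DMSO to 0.021 (-0.022 to 0.019 with 1 library left out, never called). With each library left out in turn, the genes called numbered 3313 to 5627 for GANC in HSVTK cells, 433 to 2010 in Control cells, 3415 to 4638 for the difference of responses, 4399 to 6560 between the cell groups under DMSO and 2999 to 4497 under GANC. The first was 3380 and 3313 without the library labelled HSVTK DMSO 1 or 2, the second 592, 433 and 728 without Control DMSO 1, Control DMSO 2 or Control GANC 2, and the last 2999 without that labelled HSVTK GANC 2. Members called numbered 2 to 4, 0 to 4, 2 to 5, 4 to 6 and 3 to 5 in that order. Where that left a group with 1 library, it was assumed to vary like the others. Values that turned sign, none of them called in all 8 libraries, ran from -1.17 to 0.69 (Hspa1a, cell groups under DMSO), -0.26 to 1.59 (Hspa1a, difference), -0.49 to 0.020 (Hspa1b, difference), -0.085 to 0.43 (Hspa1b, cell groups under GANC), -0.019 to 0.11 (Hspa8, GANC in HSVTK cells), -0.024 to 0.051 (Hsp90aa1, GANC in HSVTK cells), -0.0030 to 0.077 (Hsph1, cell groups under GANC), -0.024 to 0.074 (Dnajb1, GANC in Control cells) and -0.13 to 0.0081 (Hspb1, GANC in Control cells). The cause was not tested.

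Libraries of the same number showed no visible shared deviation, with correlations of -0.03 to 0.01. The labels do not say whether such libraries were handled together, and a small shared effect could go unseen. With the replicate block, 3, 3, 5, 6 and 4 members were called in the same order, and of the members' calls it changed that of Hsp90ab1 with GANC in Control cells. The sums of near-copies were chosen after seeing the data and were fitted only with all 8 libraries in the main setting. Low counts limit Hspa1a (9 to 41 per library) and Hspa1b (95 to 199).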

Other observations

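Of 11 mitochondrial chaperones and proteases, all tested, 4 were higher and 1 lower with GANC in HSVTK cells (median log2 fold change 0.08 against 0.01 for all genes), with 2 to 4 higher when 1 library was left out. Hspd1, the mitochondrial HSP60, rose to 1636 ± 68.1 CPM in the libraries labelled HSVTK GANC, against 1375 ± 4.004 CPM in those labelled HSVTK DMSO (SD, n = 2 each; log2 fold change 0.25 ± 0.05 SE, adjusted p = 0.000175). Under DMSO it was lower in HSVTK than in Control cells (-0.31 ± 0.05, adjusted p = 7.52e-06). Clpp, the mitochondrial protease, had the same directions in these comparisons (0.32 ± 0.06, adjusted p = 0.000231, and -0.32 ± 0.06, adjusted p = 0.000198). Unlike Hspd1, Clpp was also called lower with GANC in Control cells (-0.28 ± 0.06, adjusted p = 0.00548). Between the cell groups under GANC it was higher (0.29 ± 0.06, adjusted p = 0.000923). Of all tested genes, 13.3% were higher and 15.2% lower with GANC in HSVTK cells, and 16.4% and 17.3% between the cell groups under DMSO. The shares were 11.1% and 14.9% under GANC, 4.73% and 3.35% with GANC in Control cells, and 11.6% and 14% for the difference of responses. Between the cell groups 2 of the 11 were higher and 4 lower under DMSO, with 1 to 2 higher and 2 to 4 lower when 1 library was left out (2 lower without that labelled HSVTK DMSO 1). Under GANC 4 were higher and 2 lower, with 1 to 4 higher and 1 to 2 lower (1 higher without the library labelled HSVTK GANC 2). With GANC in Control cells 1 was higher, 0 without Control DMSO 2 or Control GANC 2, and 1 lower, 0 without Control DMSO 1 or 2. The difference of responses had 3 higher and 2 lower, with 2 to 3 in each direction when 1 library was left out.

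The 8 genes of the TRiC chaperonin, which folds actin and tubulin, were all tested. Of these, 1 was lower between the libraries labelled HSVTK DMSO and Control DMSO, against 17.3% of all tested genes. That gene, Cct7, fell to 432 ± 6.13 CPM in the libraries labelled HSVTK DMSO, against 865 ± 27.0 CPM in Control DMSO (adjusted p = 1.59e-14), and its 30 nearest expressed genes had a median log2 fold change of -1.01. Under GANC it was at -1.01 ± 0.05 and its neighbours at -0.93. The part of the location was not tested. The other list counts for TRiC were 2 lower with GANC in HSVTK cells (0 with the replicate block or library size scaling, and 0 to 5 when 1 library was left out), 2 lower between the cell groups under GANC and 0 in the remaining comparisons. Prefoldin, which hands chains to TRiC, had 4 of 6 genes lower with GANC in HSVTK cells (median -0.17), 2 with the replicate block and 1 to 4 when 1 library was left out. It had 2 lower between the cell groups under GANC (Pfdn2 and Pfdn5), 1 lower for the difference of responses (Pfdn2) and 0 elsewhere. Under GANC neither gene was called with library size scaling or with only the groups compared. The calls in both comparisons also depended on single libraries. Of all tested genes, 15.2% were lower with GANC in HSVTK cells, 14.9% between the cell groups under GANC and 14% for the difference of responses.

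Of 10 ubiquitin and proteotoxic stress genes, 2 were higher and 3 lower between the libraries labelled HSVTK DMSO and Control DMSO, where 16.4% of all tested genes were higher and 17.3% lower. Those shares were 13.3% and 15.2% for GANC in HSVTK cells and 4.73% and 3.35% in Control cells. They were 11.6% and 14% for the difference of responses and 11.1% and 14.9% between the cell groups under GANC. Nfe2l1, a transcription factor that drives proteasome genes, rose to 240.2 ± 5.09 CPM in the libraries labelled HSVTK DMSO, against 187 ± 2.48 CPM in Control DMSO (0.36 ± 0.06, adjusted p = 2.09e-05). Sqstm1, the autophagy receptor p62, fell to 156 ± 2.35 CPM in the libraries labelled HSVTK DMSO, against 203 ± 10.5 CPM in Control DMSO (-0.38 ± 0.06, adjusted p = 1.38e-05). Hmox1, the oxidative stress enzyme heme oxygenase, fell to 172 ± 0.0885 CPM, against 223 ± 3.72 CPM in Control DMSO (-0.37 ± 0.06, adjusted p = 7.52e-06). With GANC in HSVTK cells 1 was higher and 1 lower, with 0 to 1 higher and 1 to 2 lower when 1 library was left out. In Control cells 1 was higher, 0 without Control DMSO 1 or 2. For the difference of responses 3 were lower, 2 to 3 when 1 library was left out. Between the cell groups under GANC 3 were lower, but 1 without Control GANC 2 or the library labelled HSVTK GANC 2.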
